A study of Homo sapiens with 6 samples.

Results

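Atm and Nbn are 2 of the 459 genes whose loss was tested, alone and in pairs, in a CRISPR screen that asked how cells grow with and without X-rays. A guide pair belonged to Atm or Nbn when either gene symbol in its name was one of these. This kept 8 of the 1826 guides directed at genes and 7392 of the 863546 guide pairs, of which 3707 held an Atm guide and 3693 an Nbn guide. The symbols are written in the mouse style although the cells are human, and they are kept here as the guide names give them.

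The cells were eHAP iCas9-cl#6, a single clone of a human near-haploid line that is p53 null and carries Cas9 under doxycycline control. All groups shared the clone, the p53 loss, the guide library and its puromycin selection. Irradiated cells received 0.6 Gy of X-rays a day after each split and were collected at day 15, after 10 population doublings. Unirradiated cells were collected at day 14, after 12 population doublings, and the start of the screen was collected as day 0. Doxycycline was given for the first part of the culture and then left out. Each of the 3 groups had 2 libraries, so the irradiated and day 14 groups differ in time and doublings as well as in dose. The labels do not say that replicates came from separate cultures, so every p-value below measures the spread between these libraries, which may be technical.

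ATM is a protein kinase that is switched on at DNA double-strand breaks and phosphorylates many checkpoint and repair proteins, p53 among them. NBN (nibrin) forms the MRE11 complex with MRE11 and RAD50, which binds broken ends and recruits and activates ATM. Loss of either gene is known as a cause of sensitivity to ionizing radiation in people and in cultured cells. Broken ends can also be rejoined directly by non-homologous end joining, in which the Ku proteins hold the ends and XRCC4, LIG4 and NHEJ1 seal them.

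The value measured is the number of reads of each guide pair in PCR amplicons of the guide locus, taken from genomic DNA. A guide against a gene whose loss slows growth becomes rarer among the reads. The libraries held 71481191 and 86587125 reads for the irradiated replicates 1 and 2, 61962789 and 61185707 at day 14, and 84399152 and 86542435 at day 0. Irradiated replicate 2 and day 14 replicate 1 were incomplete. Guide pairs without a single read made up 7.62% and 49.4% in the irradiated replicates 1 and 2, 54.1% and 5.62% at day 14, and 4.72% and 1.93% at day 0. Of the 7392 Atm and Nbn guide pairs, 6742 and 3364 had reads in irradiated cells, 3034 and 6930 at day 14, and 7143 and 7298 at day 0. For results on few guide pairs, values without these libraries are given where the direction or size depends on them, and the 4 other libraries are called complete.

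No Atm or Nbn guide passed the test for a change in abundance. Summed over all partners, each of the 8 guides differed from its level in the other groups by at most 0.16 on the log2 scale, and none passed the edgeR quasi-likelihood test in any comparison. The 3 comparisons share libraries, so their values are not independent of one another. The background was the same, because 0% of the 1849 guides tested passed an adjusted p of 0.05 in irradiated against day 14, irradiated against day 0, or day 14 against day 0. At an unadjusted p of 0.05, 4.49%, 3.08% and 4.27% of all guides passed in these comparisons in that order, and 0 of the 8 Atm and Nbn guides did.

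Guide levels are given in CPM, the guide's count relative to all counts at its position in the construct, scaled by TMM, an adjustment that lines up the bulk of the guides between libraries. Guides 1 and 2 of both genes sat at position 1 and guides 3 and 4 at position 2. Each sum ran over 919 to 935 guide pairs. Reads behind a sum lay between 21359, for guide 4 of Nbn in day 14 replicate 2, and 223804, for guide 2 of Atm in day 0 replicate 2.

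Guide 1 of Atm had 598.3 and 585.9 CPM in irradiated cells, against 555.7 and 536.3 at day 14 and 613.7 and 587.1 at day 0. Both day 14 libraries lay below all other libraries, and the irradiated and day 0 libraries overlapped. The fitted log2 change was 0.12 (95% interval -0.05 to 0.28) in irradiated against day 14 cells and -0.14 (-0.30 to 0.03) at day 14 against day 0.

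Guide 2 of Atm, the most abundant of the 4, had 2567 and 2515 CPM in irradiated cells, against 2614 and 2749 at day 14 and 2626 and 2581 at day 0. Both irradiated libraries were the lowest of the 6, and the day 14 and day 0 libraries overlapped. The log2 change was -0.08 (95% interval -0.19 to 0.04) in irradiated against day 14 cells and -0.03 (-0.15 to 0.08) in irradiated against day 0 cells.

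Guide 3 of Atm had 1130 and 1052 CPM in irradiated cells, against 1062 and 1086 at day 14 and 1174 and 1080 at day 0. Guide 4 had 547.9 and 671.8 in irradiated cells, against 614.1 and 532.7 at day 14 and 600.8 and 527.3 at day 0. All groups overlapped for both guides. Guide 4 was highest in irradiated replicate 2 and next highest in day 14 replicate 1, the incomplete libraries. The log2 change in irradiated against day 14 cells was 0.02 for guide 3 (95% interval -0.15 to 0.20) and 0.09 for guide 4 (-0.25 to 0.43).

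Guide 1 of Nbn had 520.8 and 543.1 CPM in irradiated cells, against 444.7 and 509.4 at day 14 and 512.9 and 534.8 at day 0. Both day 14 libraries were the lowest, with replicate 1 well under replicate 2. The log2 change was 0.16 (95% interval -0.07 to 0.39) in irradiated against day 14 cells and -0.13 (-0.37 to 0.10) at day 14 against day 0. Without day 14 replicate 1, the change was 0.06 in irradiated against day 14 cells and -0.04 at day 14 against day 0.

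Guide 2 of Nbn had 1134 and 1129 CPM in irradiated cells, against 1133 and 1071 at day 14 and 1101 and 1111 at day 0. The irradiated replicates nearly coincided and lay above both day 0 libraries, by a log2 change of 0.03 (95% interval -0.10 to 0.17). The day 14 replicates lay on both sides of the day 0 libraries, and the higher one fell between the irradiated libraries.

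Guide 3 of Nbn had 545.3 and 552.2 CPM in irradiated cells, against 629.2 and 544.3 at day 14 and 611.7 and 533.8 at day 0. Guide 4 of Nbn had 356.5 and 390.3 in irradiated cells, against 370.8 and 351.9 at day 14 and 438.7 and 358.2 at day 0. All groups overlapped for both. The spread between replicates of guide 4 at day 0 was larger than any difference between its group means. The log2 change in irradiated against day 14 cells was -0.10 for guide 3 (95% interval -0.36 to 0.17) and 0.05 for guide 4 (-0.26 to 0.36).

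Among the 8 guides, the groups did not overlap for 3 in irradiated against day 14 cells, 2 in irradiated against day 0 cells and 2 at day 14 against day 0. Over all 1849 guides, the share without overlap was 30.9%, 36.5% and 40.9% in the same order, so these counts are near the background. The guides of 1 gene did not all lie on the same side of 0. Against day 14, 3 of 4 Atm guides and 3 of 4 Nbn guides were above 0 in irradiated cells. Against day 0, 1 of 4 Atm guides and 2 of 4 Nbn guides were. The smallest adjusted p of any of the 8 in the edgeR test was 0.646, at day 14 against day 0, shared by Atm guide 1 (log2 change -0.14) and Nbn guide 1 (-0.13).

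The abundance of the guides differed far more between guides than between groups. Guide 2 held 51.4% to 56.2% of the reads of the 4 Atm guides over the 6 libraries, and guide 2 of Nbn held 40.4% to 44.4% of the Nbn guide reads. Guide 4 of Nbn was the rarest, at 13.9% to 17.0%. Each guide kept its share in the irradiated, day 14 and day 0 libraries within these few percentage points.

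When the constructs of a gene with any other partner were added up, the totals of both genes differed little between libraries. Constructs with both guides against the same gene were left out of these totals. A construct with guides against different genes counted for each of them, also in the sum that scales the totals. The scaled CPM of a gene are therefore not on the same scale as the guide CPM above. Atm had 2498 and 2480 scaled CPM in irradiated cells, against 2480 and 2521 at day 14 and 2558 and 2455 at day 0. Nbn had 1319 and 1344 in irradiated cells, against 1319 and 1274 at day 14 and 1363 and 1305 at day 0. The Atm groups overlapped in every comparison. The Nbn groups did so except in irradiated against day 14 cells, where the lower irradiated library exceeded the higher day 14 library only in digits beyond those printed. That gives 1 of 2 genes without overlap in that comparison and 0 of 2 in both others, where the share of all 459 genes was 34%, 38.8% and 40.1%.

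The log2 change of the Atm total was -0.01 (95% interval -0.11 to 0.09) in irradiated against day 14 cells, -0.01 (-0.11 to 0.09) against day 0, and -0.0033 (-0.10 to 0.10) at day 14 against day 0. For Nbn it was 0.04 (-0.09 to 0.17), -0.0029 (-0.13 to 0.13) and -0.04 (-0.17 to 0.09) in the same comparisons. These are changes of the sum over all partners, relative to the bulk of the genes that TMM lines up. Neither gene passed the edgeR test, nor did any other, with 0% of 459 genes called in each comparison. At an unadjusted p of 0.05, 2.61%, 3.92% and 3.92% of genes passed in irradiated against day 14, irradiated against day 0 and day 14 against day 0, and neither Atm nor Nbn did.

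Few genes were as steady as Atm. The gap between its highest and lowest library was 0.06 on the log2 scale, and only 26 of the 459 genes had a smaller one. The gap was 0.10 for Nbn, with 104 genes below it, and the median over all genes was 0.16. The genes whose totals followed Atm most closely over the 6 libraries were Chd1l (Pearson r = 0.858), Mcm8 (0.853) and Nabp1 (0.849). Those closest to Nbn were Ube2b (0.963), Fancm (0.950) and Apbb1 (0.947). All genes are read from the same 6 libraries, with their differences in depth and completeness, and the closest of 458 genes is high by selection. Atm and Nbn themselves had r = 0.295, which placed Nbn at rank 173 among the genes compared with Atm and Atm at rank 161 among those compared with Nbn.

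Loss of 1 gene alone was read from constructs that paired an Atm or Nbn guide with a non-targeting guide. There were 121 such constructs for Atm and 120 for Nbn. They were scaled by the reads of constructs with a non-targeting guide at both positions, which stand for cells with no targeted gene.

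Atm constructs had 8555 and 14345 reads in irradiated cells, 9447 and 7395 at day 14, and 11783 and 9987 at day 0. Per read of the non-targeting constructs, this gave 0.191 and 0.276 in irradiated cells, against 0.279 and 0.194 at day 14 and 0.227 and 0.184 at day 0. The incomplete library was the higher one in both the irradiated and the day 14 group, and all groups overlapped. The log2 change was -0.02 (95% interval -0.44 to 0.41) in irradiated against day 14 cells, 0.18 (-0.24 to 0.61) in irradiated against day 0 cells and 0.20 (-0.22 to 0.63) at day 14 against day 0.

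Nbn constructs had 4617 and 3710 reads in irradiated cells, 1986 and 3984 at day 14, and 5612 and 6033 at day 0. Scaled, this gave 0.103 and 0.0715 in irradiated cells, against 0.0588 and 0.105 at day 14 and 0.108 and 0.111 at day 0. Here the incomplete libraries were the lower ones. The log2 change was 0.09 (95% interval -0.46 to 0.65) in irradiated against day 14 cells, -0.33 (-0.88 to 0.22) against day 0 and -0.43 (-0.98 to 0.12) at day 14 against day 0. Both the irradiated and the day 14 libraries lay below both day 0 libraries.

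Of the 2 single knockouts, 0 were without overlap in irradiated against day 14 cells, 1 in irradiated against day 0 cells and 1 at day 14 against day 0, where the background over 459 genes was 24.8%, 34.4% and 30.7%. None passed the edgeR test, with adjusted p-values from 0.817 to 0.983, and 0% of all genes passed. At an unadjusted p of 0.05, 2.83%, 2.61% and 3.92% of genes did in the same comparisons. Without both incomplete libraries, the Atm value was -0.11 in irradiated against day 0 cells and -0.08 at day 14 against day 0, and the Nbn value was -0.02 in irradiated against day 14 cells, so these 3 turned in sign. The Nbn values against day 0 shrank in the same fit, to -0.09 in irradiated cells and -0.07 at day 14. The largest single construct held 21.6% of the Atm reads and 31.1% of the Nbn reads in irradiated replicate 2. In day 14 replicate 1 it held 14.7% and 24.2%. The part of the missing guide pairs in the single-gene values was not tested beyond leaving these libraries out.

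Constructs with guides against the same gene at both positions numbered 4 per gene and are described without a test. Those of Atm had 293 and 27 reads in irradiated cells, 29 and 279 at day 14, and 505 and 414 at day 0. Those of Nbn had 133 and 0 reads in irradiated cells, 1 and 77 at day 14, and 170 and 153 at day 0. In the incomplete libraries, 2 and 3 of the 4 Atm constructs had no read, and 4 and 3 of the Nbn constructs.

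Double knockouts were asked whether a pair departs from the sum of the effects of its members. Reads were summed per pair of genes over both orders and all guides, usually 8 constructs. The interaction is the log2 change of a pair beyond an additive expectation fitted to all 105111 gene pairs of each library. Atm and Nbn each had 458 partner genes. No pair with Atm or Nbn passed the edgeR test in any comparison, and neither did any of the other pairs, with 0% called. At an unadjusted p of 0.05, 7 of the 458 Atm pairs (1.53%) and 1 Nbn pair passed in irradiated against day 14 cells, where the share over all pairs was 0.832%. For each gene 1 pair passed in irradiated against day 0 cells, with 0.354% over all pairs. The count was 2 Atm pairs and 7 Nbn pairs at day 14 against day 0, with 0.421% over all pairs.

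The precision of these values was low. The 95% interval reached a median of 1.22 to each side of an Atm interaction and 1.83 to each side of an Nbn interaction on the log2 scale. An interval that leaves out 0 at an unadjusted p is given for some pairs below, and none passed after adjustment.

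The pair of Atm with Nbn, kinase and activator, had 382 and 175 reads in irradiated cells, 321 and 467 at day 14, and 488 and 583 at day 0. Only 3 of its 8 constructs had reads in each incomplete library, and in day 14 replicate 1 a single construct held 99.4% of the reads. The interaction was -0.86 (95% interval -2.29 to 0.56) in irradiated against day 14 cells, -0.60 (-2.02 to 0.82) in irradiated against day 0 cells and 0.26 (-1.16 to 1.68) at day 14 against day 0. In the complete libraries alone, the values were -0.53, -0.14 and 0.38 in the same order. The edgeR adjusted p was 0.9999 or more in both irradiated comparisons.

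Partners in end joining were examined as a group of 16 genes. The group includes the Ku subunits Xrcc5 and Xrcc6, the ligation factors Lig4, Xrcc4, Nhej1 and Paxx, the nuclease Dclre1c (Artemis), the polymerases Polm, Poll and Dntt, the end cleaners Aptx, Tdp1 and Tdp2, the scaffold Aplf and the regulator Cyren. Atm was paired with these genes in 126 constructs and Nbn in 128.

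Atm with Lig4, the ligase of the pathway, had 969 and 983 reads in irradiated cells, 261 and 687 at day 14, and 869 and 779 at day 0. Both irradiated libraries were above all others, in reads and over the additive expectation. How many of all pairs separate in this way was not counted. A single construct made up 78.5% of the reads in irradiated replicate 2, where 4 of 8 constructs had reads. The interaction was 0.69 (95% interval -0.40 to 1.78) in irradiated against day 14 cells and 0.62 (-0.47 to 1.70) in irradiated against day 0 cells. With the 4 complete libraries, the values were 0.29 and 0.65.

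Atm with Nhej1 (XLF, which bridges the ends for ligation) had 599 and 1138 reads in irradiated cells, 866 and 443 at day 14, and 901 and 711 at day 0. The more abundant library of the irradiated and of the day 14 group was the incomplete one. In day 14 replicate 1, 95.2% of the reads came from 1 of 8 constructs. The interaction was 0.02 (95% interval -1.25 to 1.29) in irradiated against day 14 cells and 0.39 (-0.88 to 1.65) against day 0. Fitted on the complete libraries alone, the values were 0.26 and -0.10.

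Atm with Xrcc4, the partner of the ligase, had 487 and 422 reads in irradiated cells, 257 and 428 at day 14, and 492 and 805 at day 0. The irradiated libraries lay below both day 0 libraries in reads, though not after scaling against the additive expectation. The interaction was 0.04 (95% interval -1.13 to 1.20) in irradiated against day 14 cells and -0.36 (-1.53 to 0.80) against day 0. Without both incomplete libraries the values were -0.10 and -0.26.

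Of the other 13 partners, Atm with the polymerase Poll was the most precisely measured, with 1801 and 3921 reads in irradiated cells, 1823 and 1634 at day 14, and 2061 and 1646 at day 0. Its reads were highest in irradiated replicate 2 and overlapped between the groups. The interaction was 0.33 (95% interval -0.57 to 1.24) in irradiated against day 14 cells and 0.86 (-0.05 to 1.77) in irradiated against day 0 cells, which was 0.26 without irradiated replicate 2. Over all 16 genes, the Atm interactions ran from -0.62 for Tdp2 to 1.38 for Tdp1 in irradiated against day 14 cells. The highest was 1.20 for Polm in irradiated against day 0 cells. The Ku subunits gave 0.30 for Xrcc5 and 0.02 for Xrcc6 against day 14, and 0.41 and 1.09 against day 0, all with intervals that include 0.

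The same 3 partners could hardly be read with Nbn. Nbn with Xrcc4 had 397 and 0 reads in irradiated cells, 2 and 267 at day 14, and 412 and 475 at day 0. Nbn with Nhej1 had 298 and 603 in irradiated cells, 0 and 354 at day 14, and 578 and 495 at day 0. Nbn with Lig4 had 386 and 23 in irradiated cells, 93 and 346 at day 14, and 379 and 391 at day 0. In the complete libraries these pairs held between 267 and 578 reads, while the incomplete libraries ranged from none to 603.

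The fitted interactions in irradiated against day 14 cells were 0.24 for Nbn with Xrcc4, 1.04 for Nbn with Nhej1 and -0.43 for Nbn with Lig4. Their 95% intervals ran from -5.58 to 6.05, from -3.30 to 5.38 and from -3.54 to 2.68. Values that wide carry no direction. In the complete libraries alone, they were 0.25, -0.46 and -0.08.

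Taken as a group, the end joining partners of Atm lay above the additive expectation in irradiated cells, far more so in 1 irradiated library than in the other. In irradiated against day 14 cells, 14 of 16 interactions were above 0 with a median of 0.34, where 246 of all 458 Atm partners were above 0 with a median of 0.05. Against day 0, 14 of 16 were above 0 in irradiated cells with a median of 0.54, where 235 of 458 were above 0 with a median of 0.01. The count was 12 of 16 at day 14 against day 0, with a median of 0.11. No member of the group passed the test in any comparison, and 0 of 16 passed an unadjusted p of 0.05.

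By library, the median of the 16 Atm pairs over the additive expectation was 0.13 and 0.89 in irradiated cells, -0.0089 and 0.08 at day 14, and -0.14 and 0.03 at day 0. Irradiated replicate 2, one of the incomplete libraries, stood apart from the other 5. In it, 58 of the 126 constructs had no read, against 6 in irradiated replicate 1. Without irradiated replicate 2 the median was -0.07, with 7 of 16 above 0, against day 14, and 0.15, with 10 of 16 above 0, against day 0.

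For Nbn, 10 of 16 end joining interactions were above 0 in irradiated against day 14 cells, with a median of 0.26 against 0.01 over all 458 partners. Against day 0, 11 of 16 were above 0 in irradiated cells, with a median of 0.12 against -0.02. The day 14 count was 6 of 16 against day 0, with a median of -0.17. The medians by library were -0.02 and 0.13 in irradiated cells, -0.50 and -0.06 at day 14, and -0.06 and 0.02 at day 0, so day 14 replicate 1 was the lowest. With the 4 complete libraries, 7 of 16 were above 0 in irradiated against day 14 cells (median -0.05), 9 in irradiated against day 0 cells (median 0.0072) and 8 at day 14 against day 0 (median -0.0064). Without day 14 replicate 2, the day 14 median against day 0 was -0.60.

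The genes nearest to ATM and NBN in function were read as a group of 11 partners, which includes Rad50, the checkpoint kinase Chek2 that ATM activates, the acetyltransferase Kat5 that acts on ATM, and the ubiquitin ligase Rnf8. With Atm, 7 of 11 interactions were above 0 in irradiated against day 14 cells (median 0.11) and 5 of 11 in irradiated against day 0 cells (median -0.15). At day 14 against day 0, 9 of 11 were below 0, with a median of -0.52 against 0.01 over all Atm partners. By library that median was -0.77 in day 14 replicate 1 and -0.01 in day 14 replicate 2, against 0.10 and -7.2e-05 at day 0. Fitted on the complete libraries alone, 4 of 11 were below 0 at day 14 against day 0, with a median of 0.05. In that fit 3 of 11 were above 0 in irradiated against day 14 cells (median -0.13) and 3 in irradiated against day 0 cells (median -0.14), so the first turned in direction.

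The member with the smallest p in this group was Rad50 in irradiated against day 14 cells, with an Atm interaction of 0.85 (95% interval -0.32 to 2.02). Against day 0 it was Chek2, at -0.71 (-1.79 to 0.38) in irradiated cells and -0.77 (-1.85 to 0.32) at day 14. None passed the edgeR test, with adjusted p of 0.969 or more.

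With Nbn, 9 of these 11 partners were above 0 in irradiated against day 14 cells, with a median of 0.19, and 6 of 11 in irradiated against day 0 cells, with a median of 0.08. Kat5 had the smallest p in both. Nbn with Kat5 had 404 and 1593 reads in irradiated cells, 428 and 204 at day 14, and 317 and 386 at day 0. The high irradiated library was the incomplete one, with 4 of 8 constructs read. The interaction was 1.27 (95% interval -0.61 to 3.16) in irradiated against day 14 cells and 1.98 (0.06 to 3.90) in irradiated against day 0 cells, with an edgeR adjusted p of 0.9999 in the second. Without irradiated replicate 2 the value against day 0 was 0.68. At day 14 against day 0, 7 of 11 were below 0 (median -0.34), with Rnf8 of smallest p at 1.46 (unadjusted p = 0.183). Without both incomplete libraries the medians of the 11 were 0.09 in irradiated against day 14 cells, 0.26 in irradiated against day 0 cells and -0.02 at day 14 against day 0.

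The ATR kinase responds to single-stranded DNA and works beside ATM. Of 12 partners in that checkpoint, 7 were above 0 with Atm in irradiated against day 14 cells (median 0.07), 6 in irradiated against day 0 cells (median -0.0071) and 6 at day 14 against day 0 (median -0.03). Chek1, the kinase that ATR activates, had the smallest p with Atm in both irradiated comparisons, at 1.23 (95% interval 0.08 to 2.39) against day 14 and 0.73 (-0.41 to 1.87) against day 0. With Nbn the counts were 7, 8 and 6 of 12, with medians of 0.04, 0.12 and 0.0046. Rad9a, of the ring-shaped 9-1-1 clamp, had the smallest p with Nbn in irradiated against day 14 cells (-1.21, -2.91 to 0.49) and at day 14 against day 0 (1.32, -0.38 to 3.03), and Clspn in irradiated against day 0 cells (0.50, -0.71 to 1.72). In the complete libraries alone, the Atm medians in the 3 comparisons were 0.06, 0.09 and -0.03. The Nbn medians were -0.0040, 0.06 and 0.10. The Atm median in irradiated against day 0 cells and the Nbn median in irradiated against day 14 cells thus turned in direction.

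Homologous recombination, which copies an intact strand, was read in 23 partners. With Atm, 14 of 23 were above 0 in irradiated against day 14 cells (median 0.13), 10 in irradiated against day 0 cells (median -0.08) and 9 at day 14 against day 0 (median -0.12). The smallest p belonged to the helicase Brip1 in the first and to Brca1 in both others. With Nbn the counts were 15, 11 and 7 of 23, with medians of 0.09, -0.10 and -0.33. The median of the Nbn pairs was -1.50 in day 14 replicate 1 and 0.13 in day 14 replicate 2. Palb2 (-0.90, 95% interval -2.21 to 0.41), Sem1 (-0.73, -2.13 to 0.68) and Rad51c (1.20, -0.39 to 2.79) had the smallest p with Nbn in the 3 comparisons. With the 4 complete libraries, the direction of 4 medians turned. With Atm, 8 of 23 were above 0 in irradiated against day 14 cells (median -0.09) and 12 at day 14 against day 0 (median 0.01). With Nbn, 14 of 23 were above 0 in irradiated against day 0 cells (median 0.06) and 13 at day 14 against day 0 (median 0.13).

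The 53BP1 and shieldin genes, which shield ends from resection, gave 8 partners. With Atm, 2 of 8 were above 0 in irradiated against day 14 cells (median -0.14), 5 in irradiated against day 0 cells (median 0.23) and 4 at day 14 against day 0 (median 0.06). Shld3 (1.19, 95% interval -0.79 to 3.17), Rif1 (-0.67, -1.98 to 0.63) and Paxip1 (0.70, -0.32 to 1.72) had the smallest p in that order. With Nbn the counts were 5, 6 and 6 of 8, with medians of 0.23, 0.47 and 0.45. Rif1, which acts downstream of 53BP1, had the smallest p with Nbn in both irradiated comparisons, at 1.06 (-0.21 to 2.34) against day 14 and 1.21 (-0.06 to 2.49) against day 0, and Paxip1 at day 14 (1.37, -0.79 to 3.54). Fitted on the complete libraries alone, 2 of 8 were above 0 with Atm in irradiated against day 0 cells (median -0.09) and 3 of 8 with Nbn at day 14 against day 0 (median -0.14), so both turned. The Nbn median in irradiated cells was then 0.32 against day 14 and 0.19 against day 0.

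The 7 partners of alternative end joining, a backup route, gave 3 of 7 above 0 with Atm in irradiated against day 14 cells (median -0.11), 3 in irradiated against day 0 cells (median -0.12) and 4 at day 14 against day 0 (median 0.39). Lig3 had the smallest p in both irradiated comparisons, at -1.05 (95% interval -2.14 to 0.04) and -0.66 (-1.74 to 0.43), and Parp2 at day 14 (0.90, -0.46 to 2.26). With Nbn the counts were 4, 4 and 3 of 7, with medians of 0.10, 0.54 and -0.19. Xrcc1, the scaffold of single-strand break repair, had the smallest p with Nbn in both irradiated comparisons (1.71, -0.77 to 4.19, and 1.14, -1.31 to 3.58), and the flap nuclease Fen1 at day 14 (0.92, -0.82 to 2.66). Without both incomplete libraries, 1 of 7 was above 0 with Nbn in both irradiated comparisons, with medians of -0.14 against day 14 and -0.39 against day 0. With Atm the median was then 0.12 in irradiated against day 14 cells and -0.06 at day 14 against day 0, so these 4 turned in direction. No partner in any of these groups passed the edgeR test.

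Beyond the groups, the 3 partners of smallest p were read for each gene and comparison. With Atm in irradiated against day 14 cells these were Brip1 (interaction -0.98, 95% interval -1.82 to -0.14), the meiotic recombinase Dmc1 (1.29) and Ercc8 (-1.93), a factor of transcription-coupled repair. Atm with Brip1 had 870 and 646 reads in irradiated cells, against 1262 and 1059 at day 14 and 1643 and 1459 at day 0. Both irradiated libraries were below all others, the complete one included. This pair was chosen by its p in that comparison, and the share of all pairs without overlap was not counted. In the complete libraries alone, the values were -0.48 for Brip1, 0.45 for Dmc1 and -0.83 for Ercc8.

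In irradiated against day 0 cells the Atm partners were the cohesin acetyltransferase Esco2 (1.59, 95% interval 0.04 to 3.14), Brca1 (0.92) and the polymerase Poll (0.86). Atm with Esco2 had 472 and 1675 reads in irradiated cells, 458 and 452 at day 14, and 447 and 465 at day 0. Only irradiated replicate 2 stood out. At day 14 against day 0 they were Timeless (0.88, 0.06 to 1.70), a replication fork protein, Usp47 (2.04) and Spire2 (1.39). With the 4 complete libraries, the values were 0.40 for Esco2, 0.59 for Brca1 and 0.26 for Poll against day 0 in irradiated cells, and 0.52 for Timeless, 0.72 for Usp47 and 0.42 for Spire2 at day 14.

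Nbn had Mpg (-1.06, 95% interval -2.09 to -0.03), a glycosylase of base excision repair, Hsf1 (-1.52) and Gtf2h4 (-2.01) in irradiated against day 14 cells. Nbn with Mpg had 389 and 414 reads in irradiated cells, against 696 and 587 at day 14 and 721 and 640 at day 0. Both irradiated libraries were the lowest, in a pair chosen by its p in that comparison. In irradiated against day 0 cells the partners were Kat5, Rif1 and the ubiquitin ligase Huwe1 (1.34). At day 14 against day 0 they were Hus1b (2.44, 0.47 to 4.42), Cul4a (1.57) and Meiob (1.24). Nbn with Hus1b had 1149 and 308 reads at day 14, against 298 and 288 at day 0, and the high library was the incomplete one. Fitted on the complete libraries alone, Mpg had -0.81, Hsf1 -0.26 and Gtf2h4 0.17 in irradiated against day 14 cells. In that fit Rif1 had 0.59 and Huwe1 0.65 in irradiated against day 0 cells, and Hus1b had 0.74, Cul4a 0.54 and Meiob 0.52 at day 14. The edgeR adjusted p of these pairs was 0.969 at day 14 against day 0 and 0.9999 or more in the irradiated comparisons, with the best of 458 partners chosen each time.

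Calls appeared when both incomplete libraries were left out, which leaves 1 irradiated and 1 day 14 library and takes the spread from the day 0 replicates alone. In irradiated against day 0 cells, 17 of the 915 Atm and Nbn pairs then passed an edgeR adjusted p of 0.05, or 1.86%, where 1.2% of all pairs did. Of these, 8 Atm pairs and 5 Nbn pairs were above 0 and 4 Atm pairs were below 0. Against day 14, 3 passed in irradiated cells, where 0.205% of all pairs did, and at day 14 against day 0 it was 1, where 0.159% did. The pairs named from this fit were chosen after their values were seen, and each rests on 1 irradiated or day 14 library.

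The 3 pairs against day 14 were Nbn with Cinp (1.55, edgeR adjusted p = 0.000172), Atm with Rad52 (1.36, 95% interval 0.84 to 1.89) and Atm with Cdk7 (1.13, 0.57 to 1.68). Nbn with Cinp, a partner of the ATR complex, had 1464 reads in the complete irradiated library, against 420 in the complete day 14 library and 546 and 505 at day 0. The incomplete libraries held 527 in irradiated cells and 1276 at day 14, so the groups overlapped once they were included. Atm with Rad52, a strand annealing protein, had 1363 and 151 reads in irradiated cells, against 427 and 461 at day 14 and 840 and 696 at day 0. Here the irradiated replicates lay on both sides of all other libraries.

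At day 14 against day 0 the single pair was Nbn with Zbtb1 (1.25, 95% interval 0.85 to 1.65). It had 17 and 1112 reads at day 14, against 655 and 744 at day 0, and 1459 and 521 in irradiated cells. Called above 0 in irradiated against day 0 cells were the Atm pairs with Dclre1a (1.30), Polh (1.19), Rad52 (1.17) and Xpa (0.99). So were those with Lig1 (1.31), Wdhd1 (1.00), Fen1 (0.83) and Timeless (0.65). The Nbn pairs above 0 there were those with Cinp (1.82), Zbtb1 (1.38), Fancf (1.28), Park7 (1.03) and Nudt1 (0.95). Below 0 were the Atm pairs with Abl1 (-1.36), Vcp (-1.17), Samhd1 (-1.08) and Rad18 (-0.96). Atm with Abl1, a kinase that ATM phosphorylates, had 241 and 477 reads in irradiated cells. It had 841 and 343 at day 14, and 1002 and 607 at day 0. The complete day 14 library, at 343, lay between the irradiated libraries in reads. The interaction in irradiated against day 0 cells was -1.36 in that fit. None of the Atm or Nbn pairs with Nhej1, Xrcc4 or Lig4 was among the pairs called.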

How the data were processed

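The 6 libraries were grouped by their titles. The deposited values were counts of reads per guide pair, not normalised, per the file headers. Guide pairs that a table did not list were set to 0. HISAT2 2.1.0 and build hg38 are listed, per the submitters' processing notes, with no step given, and the assignment of reads to guides is not described in the sources. Of the deposited columns, 2 matched no sample and were not used. Counts were summed per guide (mean of at least 2000), per gene, per gene with a non-targeting partner (mean of at least 20) and per gene pair. Each level was fitted over all features with edgeR 4.0.16 (quasi-likelihood, two-sided, Benjamini-Hochberg adjusted p of 0.05) in R 4.3.3, with limma 3.58.1 and DESeq2 1.42.0 as alternatives. Guides and genes were scaled by TMM, single knockouts by double non-targeting constructs. Gene pairs had an additive expectation of medians per library as offset, from log2 CPM computed here with a prior count of 2. The fits were also run on simulated counts, scored for irradiated against day 0 cells alone. Those counts had a common spread and no missing guide pairs, so they say nothing on the incomplete libraries.

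Named were all 8 guides, both genes, their pairs with each other and with Nhej1, Xrcc4 and Lig4, any pair called, the 3 partners of smallest p and, per list, the partner of smallest p. The members, lists and rules were chosen with earlier results of these data known. Intervals cover the spread between libraries. PCR reads without molecular identifiers are not independent molecules. Same-numbered replicates of irradiated and day 14 libraries deviated in opposite directions (r = -0.579 over 1849 guides, 0.107 for irradiated with day 0 and -0.045 for day 14 with day 0), so the numbers were not taken to pair the libraries. Differently numbered replicates of the irradiated and day 14 groups thus deviated alike, and the incomplete libraries are such a pair. The main fits took all libraries as independent.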

Additional observations from a re-analysis of the deposited data

How the results depend on the processing

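Over the alternatives run for the guides, the gene sums and the single knockouts (each library left out, both incomplete libraries left out, the replicate block, DESeq2, other scalings and filters, the median over partners, 1 position alone), 0 Atm or Nbn values passed an adjusted p of 0.05, as in the results above. Double knockouts made calls only when both incomplete libraries were left out, with 3 of 915 pairs in irradiated against day 14 cells, 17 in irradiated against day 0 cells and 1 at day 14 against day 0. Over all features, DESeq2 called 20, 27 and 18 guides and 1, 2 and 2 genes in these comparisons in that order. Fitting each position on its own, added after seeing the data, called 10, 1 and 2 guides. With pairs crossed in the irradiated and day 14 libraries alone, also added after seeing the data, 65 guides (3.52%) and 51 genes (11.1%) were called. That crossing was not fitted for gene pairs. The largest counts came without day 0 replicate 2, with 312 guides (16.9%) and 154 genes (33.6%) in irradiated against day 0 cells and 310 guides (16.8%) and 164 genes (35.7%) at day 14 against day 0. No Atm or Nbn value was among any of these.

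The sign turned in 48 of 320 alternative values for guides, 11 of 68 for gene sums and 15 of 80 for single knockouts. For the pairs named by rule it turned in 31 of 390. The call changed in 0 of these values. The pairs called without both incomplete libraries are not among those 390 values. The cause was not tested, except that the alternatives with fewer libraries rest on less data by construction. In what follows, I14 stands for irradiated against day 14, I0 for irradiated against day 0, and D for day 14 against day 0.

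Without both incomplete libraries, the guides that turned were Nbn guide 1 (-0.0083 in I0), Atm guide 3 (0.0039 in I0), Atm guide 4 (-0.042 in I0, -0.083 in D) and Nbn guide 3 (0.0026 in I14, -0.074 in D). The Atm sum was 0.0084 in D. Single knockouts turned for Atm (-0.11 in I0, -0.084 in D) and Nbn (-0.022 in I14). Pairs turned for Atm with Lig4 (0.36 in D), Atm with Nhej1 (-0.097 in I0, -0.36 in D), Atm with Xrcc4 (-0.10 in I14), Nbn with Gtf2h4 (0.17 in I14), Nbn with Lig4 (0.46 in I0, 0.54 in D), Nbn with Nhej1 (-0.46 in I14, -0.47 in I0) and Nbn with Xrcc4 (0.027 in I0).

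The median over partners in place of the sum counts guide pairs, up to 77.3% of which were without reads in an incomplete library. It gave Atm guide 1 -0.27 in I14 and 0.23 in D, Atm guide 2 0.22 in I14 and 1.90 in I0, Atm guide 3 0.61 in I0 and 0.033 in D, and Atm guide 4 -0.29 in I14 and -0.12 in I0. For Nbn it gave guide 1 -0.28 in I14 and 0.30 in D, guide 2 0.16 in D, and guide 4 -0.31 in I14, 0.056 in I0 and 0.37 in D. Values over all 1849 guides were not centered on 0 in this setting. Their median was -0.02 in I14, 0.41 in I0 and 0.21 in D.

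Scaling by double non-targeting constructs turned Nbn guide 2 (-0.037 in I14, 0.083 in D), Atm guide 3 (-0.050 in I14), Nbn guide 4 (-0.026 in I14), the Atm sum (0.065 in D) and the Nbn sum (-0.041 in I14, 0.029 in D). DESeq2 turned Nbn guide 2 (0.0030 in D), Atm guide 4 (-0.014 in D), Nbn guide 3 (-0.0027 in D) and the Atm single knockout (0.042 in I14). A minimum mean count of 100000 gave the Atm sum 0.0017 in D. TMM scaling gave the Atm single knockout 0.046 in I14. Guides at position 2 alone gave it 0.052 in I14, -0.26 in I0 and -0.31 in D, and gave Nbn -0.32 in I14. The limma-trend fit gave Nbn with Nhej1 -0.037 in I0 and Nbn with Xrcc4 -0.68 in I14. The replicate block gave Nbn with Lig4 0.043 in D and Nbn with Nhej1 -0.27 in I0, and it changed no other sign or call.

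Leaving out each library in turn gave these ranges for the guides that turned. Atm guide 1 ran from -0.052 to 0.012 in I0. Atm guide 3 ran from -0.030 to 0.074 in I14 and from -0.11 to 0.014 in I0. Atm guide 4 ran from -0.066 to 0.23 in I14, -0.042 to 0.25 in I0 and -0.083 to 0.12 in D. Nbn guide 1 ran from -0.0083 to 0.053 in I0, and Nbn guide 2 from -0.0017 to 0.080 in I14 and -0.047 to 0.035 in D. Nbn guide 3 ran from -0.20 to 0.012 in I14, -0.16 to 0.040 in I0 and -0.074 to 0.14 in D. Nbn guide 4 ran from -0.019 to 0.11 in I14, -0.23 to 0.060 in I0 and -0.28 to 0.013 in D. The Atm sum ran from -0.018 to 0.0050 in I14, -0.039 to 0.020 in I0 and -0.033 to 0.027 in D, and the Nbn sum from -0.034 to 0.029 in I0. The Atm single knockout ran from -0.31 to 0.27 in I14, -0.11 to 0.43 in I0 and -0.084 to 0.44 in D, and that of Nbn from -0.26 to 0.57 in I14. Among pairs, Atm with Lig4 ran from -0.71 to 0.36 in D. Atm with Nhej1 ran from -0.46 to 0.74 in I14, -0.097 to 0.75 in I0 and -0.36 to 0.85 in D, and Atm with Xrcc4 from -0.20 to 0.32 in I14. Nbn with Lig4 ran from -3.72 to 0.55 in I14, -3.76 to 0.46 in I0 and -1.02 to 0.54 in D. Nbn with Nhej1 ran from -0.47 to 0.39 in I0. Nbn with Xrcc4 ran from -10.34 to 6.03 in I14 and from -11.55 to 0.027 in I0, fitted values against libraries with 0 or 2 reads that depend on the prior count and are no bound.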
